A study of Mus musculus with 2 samples.

Results

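The 8 genes Dnmt1, Dnmt3a, Dnmt3b, Tet1, Tet2, Tet3, Idh1 and Idh2 that write, remove or indirectly modulate DNA methylation were followed here. Dnmt genes encode DNA methyltransferases, Tet genes 5-methylcytosine dioxygenases and Idh genes isocitrate dehydrogenases. They were chosen by gene symbol, and all 8 were found among the 32285 genes listed for each library. The cells were mouse leukemic promyelocytes carrying PLZF/RARA, a fusion of the zinc finger repressor PLZF with retinoic acid receptor alpha, sorted from leukemic bone marrow as Cd45.2+, c-Kit+, Gr1+, Cd34- and FcγR+ late promyelocytes. One group, called vehicle here, came from mice injected intraperitoneally with corn oil holding 10% DMSO, and the other from mice injected intraperitoneally with 0.8 to 1 mg of retinoic acid, each for 7 days. Both groups thus carried the fusion, and the labels give no fusion-free cells. Each group was 1 single-cell 3′ RNA library; a cohort of 3 to 5 mice was treated, but the labels do not say how many mice went into a library. No test between conditions was therefore possible, and every interval below covers counting error only, at 95%.

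DNA methylation at CpG sites is set by the de novo enzymes Dnmt3a and Dnmt3b and is copied onto the new strand after replication by Dnmt1, which is brought to hemimethylated DNA by Uhrf1. The Tet enzymes oxidise 5-methylcytosine with oxygen and 2-oxoglutarate, and base excision repair started by Tdg can then restore cytosine. Idh1 in the cytosol and peroxisomes and Idh2 in mitochondria make 2-oxoglutarate from isocitrate, and mutant forms of both in myeloid leukemia make 2-hydroxyglutarate, which inhibits the Tet enzymes. DNMT3A, TET2, IDH1 and IDH2 are recurrently mutated in human acute myeloid leukemia; the measurements here are of RNA level and say nothing of mutation, enzyme activity or DNA methylation.

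The vehicle library held 5476 cells after filtering and 99107718 UMIs (unique molecular identifiers, each marking 1 captured RNA molecule), and the retinoic acid library 7140 cells and 110088247 UMIs. The median depth was 16749.5 UMIs per cell under vehicle and 14604 under retinoic acid. Levels are given as counts summed over cells, per 1000000 UMIs (CPM), and shares of cells were taken after thinning every cell to 5000 UMIs. The 2 libraries differed widely in several stage and lineage genes. Mpo stood at 311 CPM under vehicle and 0.50 under retinoic acid, and the mast cell and basophil gene Cpa3 at 570 and 0.10. The secondary granule gene Camp stood at 175 and 18200.1 CPM, and Cd34 at 53.8 and 0.12. Cd34 RNA was thus present in the vehicle library although the sort took Cd34- cells. The promyelocyte gene Elane went the other way from Mpo, at 62.8 and 7663 CPM. Of the other sort markers, Kit stood at 19.3 and 16.7 CPM and Ptprc, the gene of Cd45, at 99.6 and 102. The 7 promyelocyte markers summed to 9105 and 19569 CPM, 8 maturing neutrophil markers to 1600 and 61808, and 8 mast or basophil markers to 1072 and 83.2, with Fcer1a at 0 in both libraries. Lists for eosinophils, erythroid cells, T cells, B cells, monocytes and megakaryocytes summed to between 1.79 and 114 CPM under vehicle and between 0.34 and 44.9 under retinoic acid. Car1, Cd3e, Cd4 and Cd8a were at 0 in both. Their part in the results was not tested, beyond the values within phases, granule groups and Cpa3 or Mpo cells given beside them. In sums over cells, fewer cells of a type and less RNA per cell cannot be told apart. Only 11 kept barcodes occurred in both libraries.

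Across the whole libraries Dnmt1 was higher and Tet2 lower under retinoic acid, while the other members differed by less. A level of 10 CPM in 1 library or the other was reached by 6 members, of which Dnmt1 was higher and Tet2 lower by 1.5-fold or more. Of all 7654 genes at that level 19.5% were so (8.35% higher and 11.2% lower). At 2-fold no member passed, against 8.69% of genes. The median log2 ratio was 0.10 over the 7 members with counts and 0.06 over the 6 at 10 CPM. Over all genes at 10 CPM it was -0.00. Dnmt1 stood at 72.2 CPM under vehicle and 123 under retinoic acid, a log2 ratio of 0.77 (0.73 to 0.81). A Dnmt1 UMI was found in 26.8% of thinned vehicle cells and 42.2% of thinned retinoic acid cells (56.8% and 71.9% without thinning). Tet2 stood at 16.0 and 9.07 CPM, a log2 ratio of -0.82 (-0.94 to -0.71), and its positive cells were 7.74% and 4.42% (23.1% and 12% without thinning). For both genes the level and the share of positive cells thus differed in the same direction.

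Idh2 was modestly lower under retinoic acid and Idh1 modestly higher. Idh2 stood at 178 CPM under vehicle and 151 under retinoic acid, a log2 ratio of -0.23 (-0.26 to -0.20), with positive cells at 56.5% and 48.3%. Idh1 stood at 29.2 and 34.7 CPM, a log2 ratio of 0.25 (0.18 to 0.32), with positive cells at 13.1% and 15.4%. Dnmt3a was level in CPM, at 12.98 and 13.18, a log2 ratio of 0.02 (-0.09 to 0.13). Its positive cells were 7.31% and 6.34%, a difference of -0.97 points (-1.89 to -0.06). With cells thinned to 3000 UMIs that difference was -0.30 points, with an interval that included 0 (-1.01 to 0.39). Without thinning the difference was -2.80 points (-4.18 to -1.43), but the median vehicle cell was then deeper. Whether fewer cells were positive for Dnmt3a under retinoic acid thus depended on the depth of thinning. Tet3 was nearly level at 26.6 and 28.4 CPM, a log2 ratio of 0.10 (0.02 to 0.17). Dnmt3b lay below the 10 CPM limit in both libraries, at 5.66 and 6.47 CPM, a log2 ratio of 0.19 (0.03 to 0.35). Its positive cells were 2.61% and 3.06%. A UMI of any of the 7 erythroid genes was found in 2.31% of vehicle and 0.44% of retinoic acid cells. Whether those erythroid UMIs were free RNA was not tested, so they set no background level for Dnmt3b. No cell class lacking the members was at hand to measure free RNA. Tet1 had no UMI in any of the 12616 kept cells nor in any removed barcode. A count of 0 allows up to 0.0238% of cells with a Tet1 UMI, and 13442 listed genes were likewise at 0 in both libraries.

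**Figure D1:**
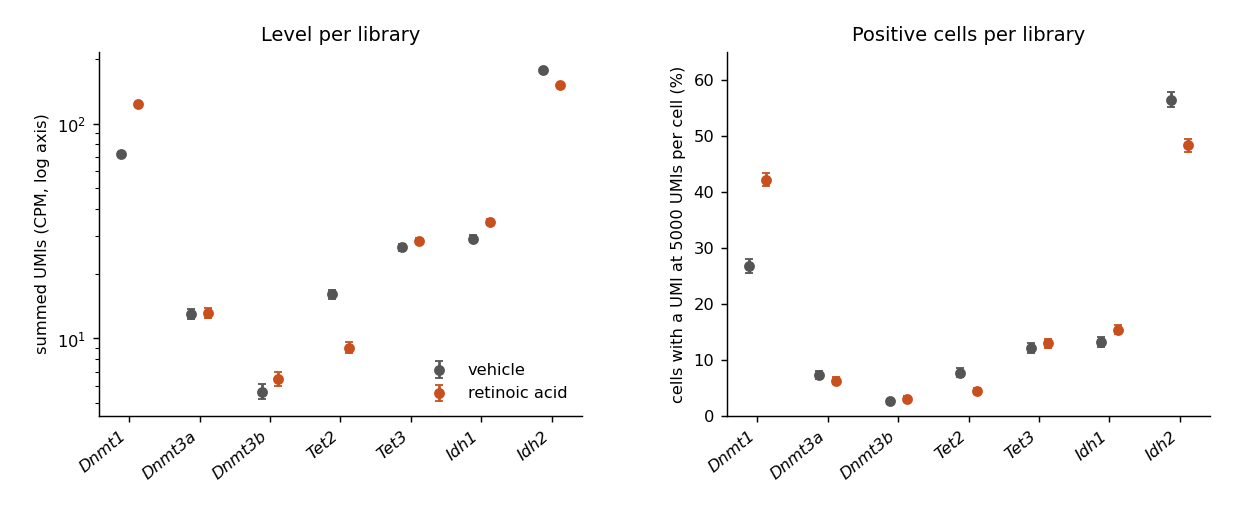
Left, summed CPM on a log axis for the 7 members with counts in the vehicle (grey) and retinoic acid (orange) libraries; right, percent of cells with a UMI after thinning to 5000 UMIs. Bars are 95% counting intervals; Dnmt1 goes from 72.2 to 123 CPM and Tet2 from 16.0 to 9.07, and the points of 1 gene should be compared between libraries, not between genes, since transcripts differ in length and capture.

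The members lie on 8 different chromosomes of the GRCm38 build (GENCODE M21). Dnmt1 (ENSMUSG00000004099) spans chr9:20907209-20959888 on the minus strand, Dnmt3a (ENSMUSG00000020661) chr12:3806007-3914443 on the plus strand and Dnmt3b (ENSMUSG00000027478) chr2:153649450-153687730 on the plus strand. Tet1 (ENSMUSG00000047146) spans chr10:62804570-62908996, Tet2 (ENSMUSG00000040943) chr3:133463679-133545139 and Tet3 (ENSMUSG00000034832) chr6:83362373-83459084, all on the minus strand. Idh1 (ENSMUSG00000025950) spans chr1:65158616-65186500 and Idh2 (ENSMUSG00000030541) chr7:80094846-80115392, both on the minus strand. The antisense gene Gm42567 shares 43 exon bases with Tet2 and had 21 UMIs under vehicle and 14 under retinoic acid, beside 1588 and 999 for Tet2. Whether counting used strand is not given in the sources used here. Dnmt3aos shares 133 exon bases with Dnmt3a and had 0 and 3 UMIs.

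Dnmt1, the maintenance methyltransferase, followed the cell cycle in both libraries and was higher under retinoic acid in every phase. Phases were called from expression scores of S and G2/M gene lists that hold none of the members. The vehicle cells fell 49.0% in G1, 20.2% in S and 30.7% in G2/M, and the retinoic acid cells 20.6%, 39.8% and 39.5%. These shares depend on the scoring: with genes seen in under 3 cells kept in the score's pool, S calls were 10.6% and 25.9%. In vehicle cells Dnmt1 stood at 35.8 CPM in G1, 111 in S and 85.1 in G2/M. In retinoic acid cells it stood at 71.4, 157 and 113 CPM. S cells therefore exceeded G1 cells by log2 ratios of 1.63 (1.53 to 1.73) and 1.14 (1.04 to 1.23), the difference between phases being smaller under retinoic acid. Within G1 the retinoic acid library was higher by 1.00 on the log2 scale (0.88 to 1.11), within S by 0.50 (0.43 to 0.57) and within G2/M by 0.40 (0.34 to 0.46). Weighting the phases of the retinoic acid cells as in vehicle gave a Dnmt1 log2 ratio of 0.56, against 0.78 in the same cells before. The part of free RNA in the phase calls was not tested.

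Among the 6 members at 10 CPM or more, Dnmt1 was the only one past 1.5-fold between S and G1 in vehicle cells, against 22.2% of all genes, and between G2/M and G1, against 24.6%. In retinoic acid cells Dnmt1 and Idh1 passed between S and G1 (21.2% of all genes), in opposite directions. Dnmt1 alone passed between G2/M and G1 there (27.0% of all genes), at 0.66 (0.56 to 0.75). At 2-fold under retinoic acid, Dnmt1 alone passed between S and G1 (8.1% of all genes) and no member between G2/M and G1 (9.42%). Between the libraries, Dnmt1 alone passed within G1 (27.1% of all genes), and Tet2 alone within S (17.7%) and within G2/M (17.2%).

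**Figure D2:**
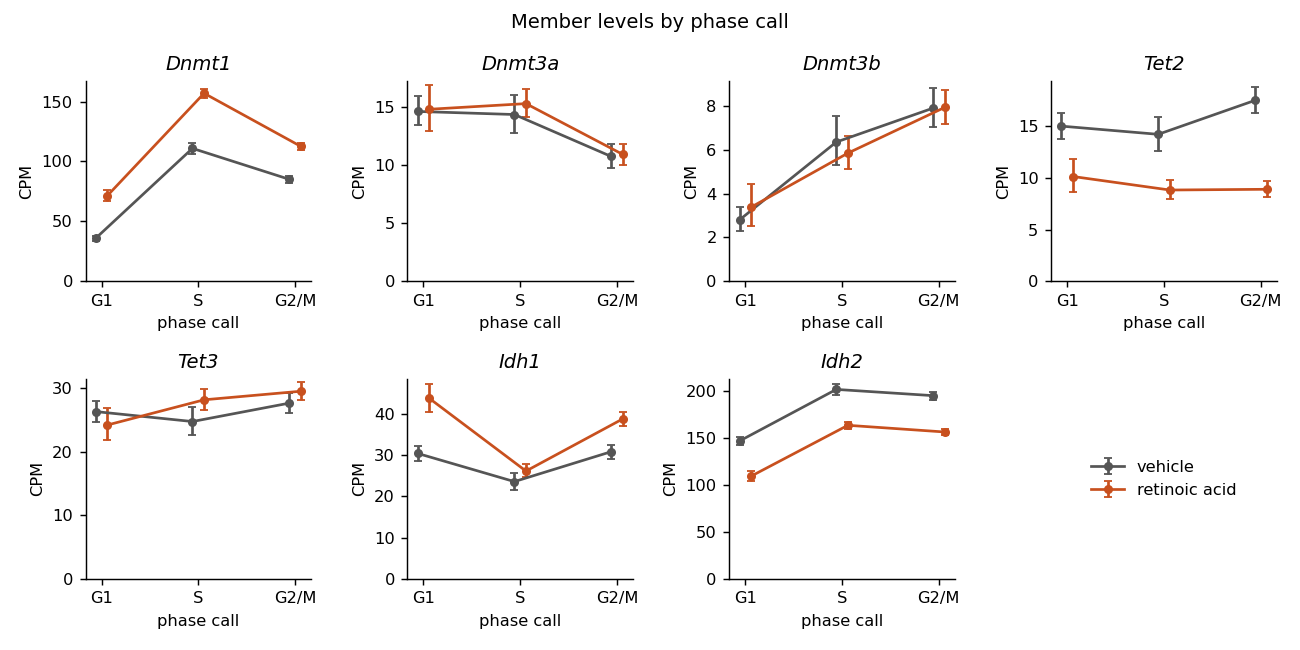
Summed CPM in cells called G1, S and G2/M for each member with counts, vehicle in grey and retinoic acid in orange, with 95% counting intervals. Dnmt1 peaks in S (111 and 157 CPM), Dnmt3b is lowest in G1 (2.80 and 3.38), Idh1 is lowest in S (23.6 and 26.1), and Tet2 under retinoic acid lies below vehicle in each phase.

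The granule share of a cell, the percent of its UMIs from 20 secondary granule and late neutrophil genes, splits the retinoic acid library widely. With the cells of a library ordered by this share and cut into 4 equal bins, the median share was 0.94%, 2.48%, 6.0% and 20.7%, while in the vehicle bins it was 0.04%, 0.08%, 0.14% and 0.28%. Each vehicle median thus lay below the lowest retinoic acid one. Level vehicle bins therefore cannot show how a gene would go over a wider range of granule share. Dnmt1 in retinoic acid cells stood at 122, 125, 130 and 115 CPM over the 4 bins in rising order, a top over bottom log2 ratio of -0.09 (-0.17 to -0.02). Since granule transcripts take up UMIs, the same ratio with the 20 genes left out of the total was 0.24 (0.16 to 0.31). In either form Dnmt1 lay above the all-gene median, which was -0.37 and -0.03. It stayed between the all-gene quartiles, which were -0.67 and -0.04, and -0.33 and 0.31 with the 20 genes left out. Within G1 its 4 bins stood at 68.2, 76.2, 71.0 and 70.6 CPM, a top over bottom ratio of 0.05 (-0.19 to 0.29). The vehicle bins, at 75.6, 71.8, 68.9 and 72.3 CPM, also stayed close together.

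The start regions of Dnmt1 were searched for E2F words, since E2F factors act at promoters of S-phase genes. The words TTTGGCGC, TTTGCCGC, TTTCGCGC and TTTCCCGC were sought on both strands in RefSeq windows of 300 bases (GRCm38.p6), from 250 before to 50 after each listed start, and all 8 members matched with 13 windows. Dnmt1 has 3 listed starts, and only the window of the third, chr9:20952574-20952873 on the minus strand, held matches. The pair began at positions -219 and 34 relative to that start, in exon stretches annotated as UTR in GENCODE M21. No other member window held such a word, and 744 of all 32851 windows did (2.26%). The 30 bases around each are shown 5′ to 3′ with the word in capitals, because Dnmt1 is the member with the strongest S over G1 difference among those at 10 CPM.
Dnmt1 upstream word, chr9:20952824-20952853: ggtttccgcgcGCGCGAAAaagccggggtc
Dnmt1 downstream word, chr9:20952574-20952603: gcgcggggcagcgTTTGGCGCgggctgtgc
A match is a description of the letters and not a site or a cause. The same 13 windows held no direct repeat of AGGTCA spaced by 5 or 2 bases, which retinoic acid receptors can bind (3 of 32851 windows each), no C/EBP word TTGCNNAA (10.8% of windows), and 1 E-box CACGTG, at Dnmt3a (7.15% of windows).

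The de novo enzymes differed from Dnmt1 and from each other. Dnmt3a stood at 14.6, 14.3 and 10.7 CPM in G1, S and G2/M vehicle cells and at 14.8, 15.3 and 10.9 in retinoic acid cells. It was lower in G2/M than in G1 by the same amount in each library, a log2 ratio of -0.44, with intervals of -0.63 to -0.26 and -0.67 to -0.21. Across the retinoic acid granule bins Dnmt3a stood at 12.9, 12.7, 13.9 and 12.8 CPM, a top over bottom ratio of -0.00 (-0.23 to 0.23), which became 0.33 (0.10 to 0.56) with the granule genes left out of the total. Dnmt3b had the opposite relation to phase, at 2.80, 6.35 and 7.90 CPM under vehicle and 3.38, 5.84 and 7.93 under retinoic acid. The G2/M over G1 log2 ratios of Dnmt3b were 1.49 (1.17 to 1.83) and 1.22 (0.81 to 1.68). Dnmt3b at the vehicle shares of phases differed between the libraries by only 0.03 on the log2 scale, against 0.20 before.

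Dnmt3b declined in steps with granule share under retinoic acid, while it was nearly level over the vehicle bins, which span far smaller shares. Its 4 retinoic acid bins stood at 8.80, 6.70, 6.02 and 3.26 CPM, a top over bottom log2 ratio of -1.42 (-1.85 to -1.04), resting on 276 and 64 UMIs. The vehicle bins stood at 5.70, 5.50, 5.55 and 5.92 CPM, a ratio of 0.05 (-0.29 to 0.40). Within S cells of the retinoic acid library the top over bottom ratio was -1.11 (-1.82 to -0.49) and within G2/M cells -1.14 (-1.78 to -0.58), so the decline was present at a fixed phase call. Without the granule genes in the total it was -1.09 (-1.52 to -0.70). All these Dnmt3b levels are low: the 561 vehicle UMIs came from 514 cells and the 712 retinoic acid UMIs from 645.

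Dnmt3l, the catalytically inactive partner of the de novo enzymes that is known chiefly from germ cells, was listed among the partners and readers rather than as a member. Dnmt3l stood at 45.4 CPM under vehicle and 38.8 under retinoic acid, a log2 ratio of -0.23 (-0.29 to -0.17). Dnmt3l shares 67 exon bases with Aire on the opposite strand, which had 95 and 19 UMIs beside 4497 and 4268 for Dnmt3l. The gene was named because it was detected in both libraries, which was seen in the data.

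Tet2, whose loss of function is a common lesion in myeloid disease, was lower under retinoic acid in every phase. Vehicle cells stood at 15.0, 14.2 and 17.5 CPM in G1, S and G2/M, and retinoic acid cells at 10.1, 8.83 and 8.90. The log2 ratios between libraries were -0.56 (-0.83 to -0.31), -0.69 (-0.91 to -0.46) and -0.98 (-1.15 to -0.81), and at the vehicle shares of phases -0.76. Tet2 also declined with granule share inside each library. The vehicle bins stood at 18.0, 16.6, 15.6 and 13.02 CPM, a top over bottom ratio of -0.47 (-0.68 to -0.25). The retinoic acid bins stood at 10.5, 10.7, 7.07 and 6.88 CPM, a ratio of -0.61 (-0.91 to -0.32), which became -0.28 (-0.58 to 0.01) with the granule genes left out of the total. The vehicle bin with the least Tet2, at 13.02 CPM, still lay above all 4 retinoic acid bins.

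Tet3 differed by less than Tet2 between the libraries. It stood at 26.3, 24.7 and 27.6 CPM by phase under vehicle and at 24.2, 28.2 and 29.5 under retinoic acid. Its granule bins ranged from 25.2 to 27.6 CPM under vehicle and from 26.5 to 28.9 under retinoic acid. The top over bottom ratio of Tet3 under retinoic acid was -0.09 (-0.25 to 0.07), and it turned to 0.24 (0.08 to 0.40) with the granule genes left out of the total. Tet2 and Tet3 were the detected dioxygenase transcripts in these cells, and of these Tet2 differed past 1.5-fold between the libraries.

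Idh2, the mitochondrial enzyme, was lower in G1 than in the other phases and declined with granule share under retinoic acid. It stood at 147, 202 and 195 CPM in G1, S and G2/M vehicle cells and at 109, 163 and 156 in retinoic acid cells. Both libraries thus had less Idh2 in G1, with S over G1 log2 ratios of 0.46 (0.40 to 0.52) and 0.58 (0.50 to 0.66). Over the retinoic acid granule bins Idh2 stood at 190.2, 164, 143 and 86.6 CPM, a top over bottom ratio of -1.13 (-1.21 to -1.06). The share of thinned cells with an Idh2 UMI went from 59.1% to 30.7%. The vehicle bins stood at 182, 181, 178 and 171 CPM, a ratio of -0.09 (-0.15 to -0.03).

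Of the 6 members tested, Idh2 and Tet2 were past 1.5-fold, both lower, between the top and bottom retinoic acid bin. Of all genes 39.6% were past 1.5-fold and 31.9% were so and lower. With 6 members, this count does not set them apart from all genes. At 2-fold Idh2 alone passed, against 13.9% of all genes. No member passed in the vehicle library, where 3.55% of genes did. With the granule genes left out of the total, Idh2 alone passed, at -0.80 (-0.88 to -0.72), against 26.7% of all genes and a median of -0.03. The decline of Idh2 was present within each phase call. In G1 it stood at 175, 145, 117 and 48.9 CPM over the bins in rising order, a ratio of -1.84 (-2.05 to -1.63), where 57.6% of all genes passed and the all-gene median was -0.53. In S it went from 196 to 105 CPM and in G2/M from 189 to 99.8 CPM. Other features differed along the bins: median depth went from 17930.5 to 10776 UMIs, the share called G1 from 14.2% to 38.4%, the summed promyelocyte markers from 22634 to 7960 CPM and the summed maturing neutrophil markers from 7398 to 205330 CPM. Their part in the Idh2 decline was not tested beyond the values at fixed phase.

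**Figure D3:**
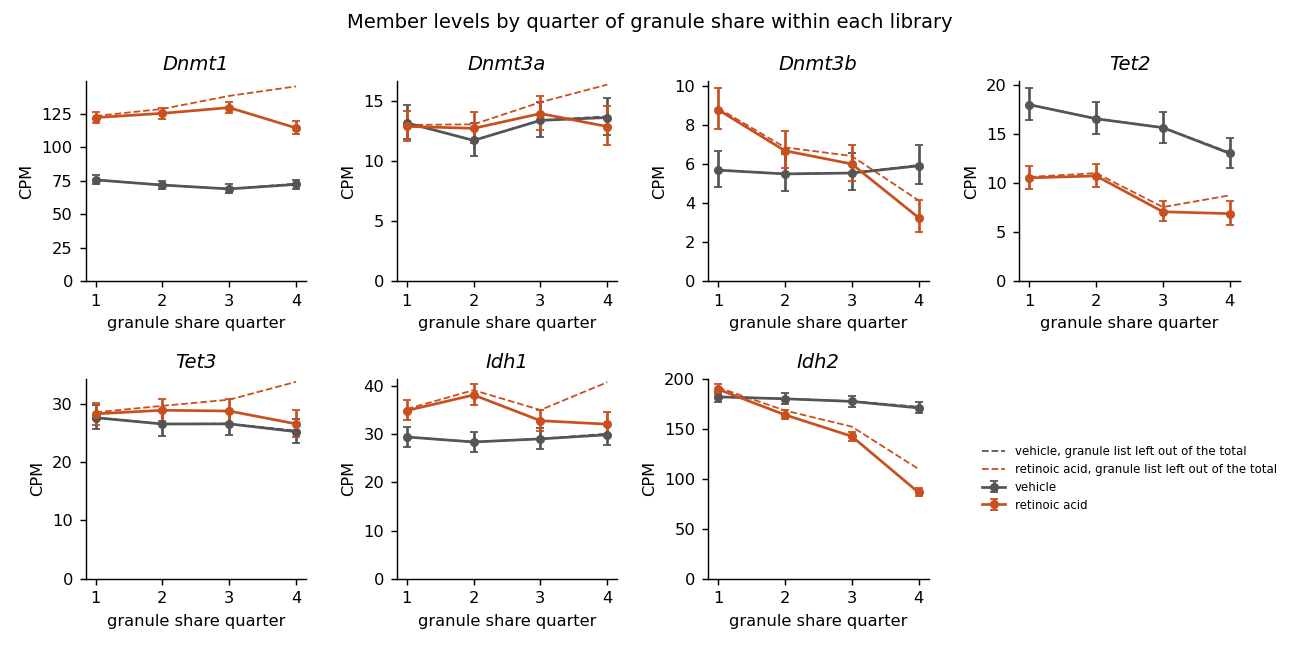
Summed CPM over the 4 bins of cells ordered by granule share within each library (1 lowest, 4 highest), with 95% counting intervals; dashed lines leave the 20 granule genes out of the total. Idh2 and Dnmt3b decline over the retinoic acid bins (190.2 to 86.6 and 8.80 to 3.26 CPM) and stay close together over the vehicle bins, which span far smaller granule shares. Tet2 declines in both libraries.

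**Figure D4:**
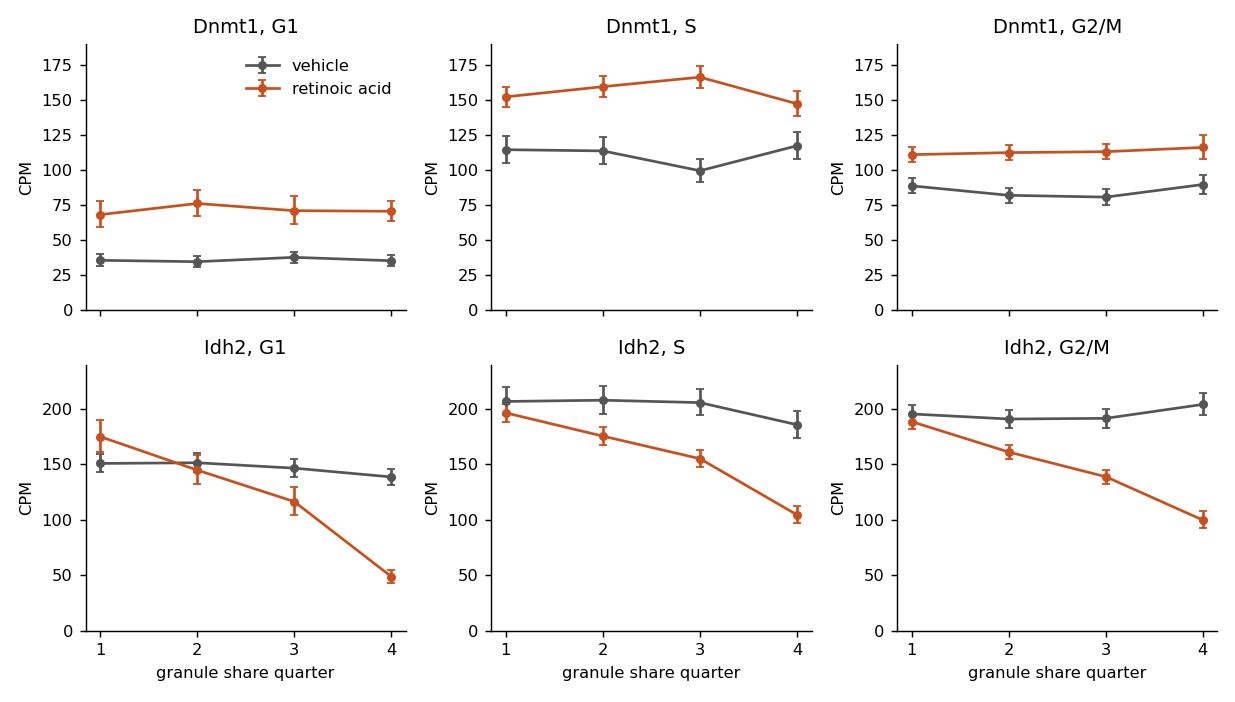
Summed CPM of Dnmt1 (top row) and Idh2 (bottom row) over the 4 granule share bins, with 1 panel for each phase call, vehicle in grey and retinoic acid in orange, bars at 95% counting intervals. Dnmt1 lies between 68.2 and 76.2 CPM over the retinoic acid G1 bins, whereas Idh2 goes from 175 to 48.9.

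Idh1, the cytosolic and peroxisomal enzyme, differed from Idh2 in the sign of its S over G1 ratio and of its ratio between the whole libraries. It was lowest in S, at 30.4, 23.6 and 30.8 CPM in G1, S and G2/M under vehicle and 43.8, 26.1 and 38.8 under retinoic acid. The S over G1 log2 ratio was -0.37 (-0.52 to -0.21) under vehicle and -0.74 (-0.89 to -0.60) under retinoic acid. Between the libraries Idh1 was higher by 0.53 (0.39 to 0.67) in G1 and 0.33 (0.23 to 0.43) in G2/M, while in S the interval of the 0.15 difference reached from -0.01 to 0.30. At the vehicle shares of phases its ratio was 0.38 and that of Idh2 was -0.35, both further from 0 than in the whole libraries. Over the retinoic acid granule bins Idh1 stood at 34.9, 38.1, 32.8 and 32.1 CPM, a top over bottom ratio of -0.12 (-0.27 to 0.02), which turned to 0.21 (0.07 to 0.35) with the granule genes left out of the total. In G1 retinoic acid cells its top bin was higher than the bottom by 0.27 (-0.05 to 0.61), and by 0.74 (0.42 to 1.08) with the granule genes left out of the total.

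The upstream sequences of Idh2 and Dnmt3b are shown because both transcripts declined with granule share under retinoic acid. Each stretch runs 5′ to 3′ over 200 bases, from 250 to 51 before the RefSeq start (GRCm38.p6), with CpG sites, the substrate of the methyltransferases, in capitals.
Idh2, chr7:80115401-80115600, minus strand: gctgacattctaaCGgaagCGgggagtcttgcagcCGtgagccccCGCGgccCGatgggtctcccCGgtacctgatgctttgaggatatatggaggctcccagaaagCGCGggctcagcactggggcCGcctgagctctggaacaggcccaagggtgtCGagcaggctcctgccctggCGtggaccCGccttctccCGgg
Dnmt3b, chr2:153649199-153649398, plus strand: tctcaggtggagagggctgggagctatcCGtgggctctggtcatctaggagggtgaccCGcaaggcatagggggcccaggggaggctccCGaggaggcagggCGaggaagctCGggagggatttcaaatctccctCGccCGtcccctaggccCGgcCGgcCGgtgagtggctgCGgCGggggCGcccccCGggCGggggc
The full 300-base windows of the members held from 2 CpG sites, at the first Dnmt1 start, to 57, at Tet2, beside a median of 7 (quartiles 3 and 20) over all 32851 windows. Methylation at these sites was not measured.

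Cells with a low granule share allow the libraries to be compared with little granule RNA in either. The limit was a share of 0.56%, the 95th percentile of vehicle cells, which left 5022 vehicle and 412 retinoic acid cells. The shares were not equal below this limit, with medians of 0.10% in vehicle and 0.38% in retinoic acid cells. Dnmt1 was again higher there, at 72.4 and 117 CPM, a log2 ratio of 0.69 (0.59 to 0.79), and Tet2 again lower, at 16.0 and 8.56 CPM, a ratio of -0.89 (-1.29 to -0.54). These were the 2 of 6 members past 1.5-fold, against 15.2% of all genes. At a fixed phase call the Dnmt1 ratio was 1.12 (0.72 to 1.47) in G1 and smaller in S, at 0.41 (0.26 to 0.56), and G2/M, at 0.26 (0.10 to 0.41). The Tet2 ratio was -1.27 (-2.11 to -0.61) in S and -0.75 (-1.28 to -0.30) in G2/M, while in G1 it was -0.43 with an interval that included 0 (-1.64 to 0.43). Idh2 was higher rather than lower in these cells, at 179 and 205 CPM, a ratio of 0.19 (0.12 to 0.27). The phase calls differed here as well, with G1 at 48.2% and 14.8%. Within G1 the Idh2 ratio was 0.44 (0.20 to 0.66), from 61 retinoic acid cells, and within S and G2/M it was 0.05 in each, with intervals of -0.07 to 0.17 and -0.06 to 0.16. Idh1 was higher by 0.33 (0.14 to 0.51).

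**Figure D5:**
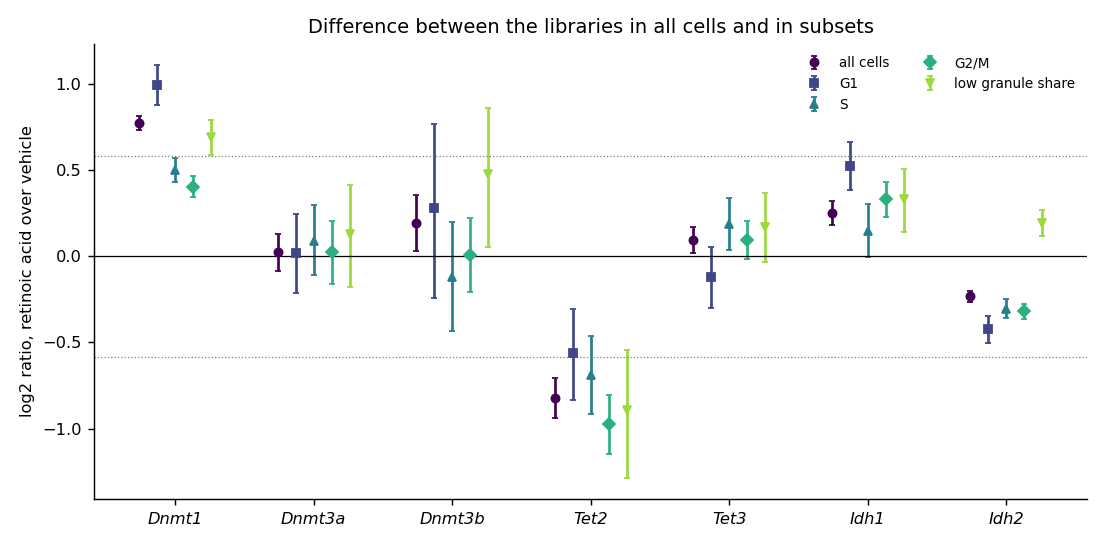
Log2 ratio of retinoic acid over vehicle for each member in all cells, within each phase call and in cells with a granule share of 0.56% or less, with 95% counting intervals; dotted lines mark 1.5-fold. Dnmt1 is above 0 and Tet2 below 0 in every subset, and Idh2 changes sides, from -0.23 in all cells to 0.19 at low granule share.

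Within the vehicle library, cells with a Cpa3 UMI and none of Mpo (2582) were compared with cells with an Mpo UMI and none of Cpa3 (642). Dnmt1 stood at 58.3 CPM in the former and 89.4 in the latter, a log2 ratio of -0.62 (-0.72 to -0.52), and was the 1 member of 6 past 1.5-fold, against 8.17% of all genes. The phase calls of these cells differed, with 63.4% and 24.6% in G1. Within G1 the Dnmt1 ratio was -0.60 (-0.88 to -0.31), within S -0.19 (-0.37 to -0.02) and within G2/M -0.17 (-0.31 to -0.03). Dnmt3b, below the 10 CPM limit, was lower in the Cpa3 cells at 4.27 and 7.11 CPM, a ratio of -0.74 (-1.10 to -0.37). At a fixed phase call the Dnmt3b ratio was -0.88 (-1.58 to -0.17) in S. In G1 it was -0.63 (-1.63 to 0.73) and in G2/M -0.01 (-0.49 to 0.50), both with intervals that included 0. Idh2 was also lower in the Cpa3 cells, at 165 and 202 CPM. Dnmt3a, Tet2, Tet3 and Idh1 had log2 ratios between -0.13 and 0.06, each with an interval that included 0.

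At 5000 UMIs a single cell seldom showed more than a few of the members. None of the 8 was detected in 20.6% of vehicle and 19.6% of retinoic acid cells, and 1 in 43.1% and 40.1%. No UMI of Dnmt1, Dnmt3a or Dnmt3b was found in 66.3% of vehicle cells and 52.5% of retinoic acid cells. No Tet UMI was found in 81.1% and 83.2%, and no Idh1 or Idh2 UMI in 37.6% and 43.6%. These shares depend on the depth to which cells were thinned and are not shares of cells lacking the transcripts.

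Some partners of the maintenance enzyme were higher under retinoic acid and others were not. Of 17 partners and readers of DNA methylation, 14 reached 10 CPM, of which 5 were at least 1.5-fold higher under retinoic acid and 0 lower, beside 8.35% and 11.2% of all genes. The list median was 0.18 and that of all genes -0.00. The 5 were Uhrf1, which recruits Dnmt1, at 32.0 and 51.6 CPM (log2 ratio 0.69), the chromatin remodeler Hells (0.74) with its partner Cdca7 (0.81), the Cdca7 paralog Cdca7l (0.78), and the mismatch glycosylase Mbd4 (0.76). Uhrf1, Hells and Cdca7 belong to the S list used for phase calls, so their S over G1 ratios are not described. The share of cells called S, 20.2% and 39.8%, differed in the same direction, and its part in these 5 was not tested. Cdca7l and Mbd4, which are not in that list, had S over G1 ratios of 1.37 and 1.21 under vehicle.

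Of 12 base excision genes, 8 reached 10 CPM, and 1 was past 1.5-fold, beside 19.5% of all genes. It was the glycosylase Neil3, higher at 23.3 and 45.0 CPM (0.95, with an S over G1 ratio of 4.63 under vehicle). Tdg, the glycosylase that removes the oxidised bases made by Tet enzymes, stood at 36.6 and 38.8 CPM (0.08). Of 6 Tet partners, 4 reached 10 CPM, and 1 was past 1.5-fold lower, beside 11.2% of all genes: Ogt, the O-GlcNAc transferase that binds Tet2 and Tet3, at 59.2 and 34.9 CPM (-0.76, interval -0.82 to -0.70).

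Of 21 enzymes and carriers around isocitrate and 2-oxoglutarate, 19 reached 10 CPM, with a median log2 ratio of -0.21 beside -0.00 for all genes. Past 1.5-fold, 3 were lower and 1 higher, beside 11.2% and 8.35% of all genes. Those lower were Dlst, a subunit of the 2-oxoglutarate dehydrogenase complex (-0.82), Glud1, which makes 2-oxoglutarate from glutamate (-0.76), and the mitochondrial citrate carrier Slc25a1 (-0.68). The cytosolic aspartate aminotransferase Got1 was the higher one (0.79). Idh3a, a subunit of the NAD-dependent isocitrate dehydrogenase, stood at 84.6 and 94.7 CPM (0.16). Between the top and bottom retinoic acid granule bins, 11 of 18 genes of this list were past 1.5-fold lower and 0 higher, beside 31.9% of all genes lower. The median was -0.68 beside -0.37 for all genes, with the granule genes kept in the total. The share of cells called G1 also differed, at 14.2% in the bottom and 38.4% in the top bin, and its part was not tested.

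The methionine cycle, which supplies the S-adenosylmethionine that methyltransferases use, had 10 of 14 genes at 10 CPM or more, and Mtap, which salvages methylthioadenosine, was the 1 past 1.5-fold lower (11.2% of all genes), at 23.9 and 9.55 CPM (-1.32). Mat2a, which makes S-adenosylmethionine, was level at 127 and 130 CPM (0.04), and Ahcy, which hydrolyses S-adenosylhomocysteine, stood at 11.4 and 8.09 CPM (-0.49). Of the 10, 7 were past 1.5-fold lower in the top retinoic acid granule bin than in the bottom, beside 31.9% of all genes. Their median was -0.90 beside -0.37 for all genes, again with the granule genes kept in the total. The 8 list genes at 10 CPM between S and G1 under retinoic acid had a median ratio of 1.10, beside 0.14 for all genes. Cells called G1 were 14.2% of the bottom and 38.4% of the top bin, and the part of phase in these counts was not tested. None of 12 germline genes that promoter methylation is known to silence reached 10 CPM in either library.

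The nearest profiles to each member were taken over 24 groups of cells, made by library, phase call and granule bin, among 5548 genes. These correlations describe groups that share libraries and carry no p-value. Dnmt1 was most like Baz1b (Pearson r = 0.978), Cenps (0.970) and Rbbp4 (0.969). Idh2 was most like Nop16, Timm17a and Fbl, each at 0.988 or 0.989. Tet2 was most like Erlec1 (0.929), mt-Atp6 (0.919) and mt-Nd4 (0.908), and the mitochondrial share of UMIs was itself lower under retinoic acid, with medians of 1.98% and 1.23% per cell. Idh1 was most like Senp7 (0.839), Lonp2 (0.835) and Rtf2 (0.826), Dnmt3a like Ift57 (0.804), Mlycd (0.738) and Casp1 (0.738), and Tet3 like Rab10 (0.742), Chd8 (0.728) and Sp1 (0.727). Among the members, Dnmt3b and Idh2 had an r of 0.718 and Idh1 and Idh2 one of -0.41.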

How the data were processed

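Single-cell 3′ libraries of sorted promyelocytes were deposited by the authors as matrices of UMI counts per gene and cell, made with Cell Ranger 4.0.0 on mm10 and GRCm38.p4, per the submitters' processing notes. The labels' protocols name the v2 chemistry. The members, gene lists and comparisons were chosen with earlier results of these data known. Cells with at least 1000 UMIs, 500 genes and at most 10% mitochondrial UMIs were kept (310 vehicle and 276 retinoic acid barcodes removed). Counts were summed per library or cell group and divided by the total UMIs (CPM), with exact Poisson intervals. Log2 ratios had 0.5 counts added to each sum and exact conditional binomial intervals, and shares had Clopper-Pearson intervals. Cells under 5000 UMIs (194 and 481) entered no phase, granule or thinned value. Phases were scored with scanpy 1.11.5 on thinned cells with lists of 43 S and 54 G2/M genes, over genes seen in at least 3 cells. Scrublet marked 1 and 7 cells, too few to be of use, so doublets were kept. A gene counted as different when at 10 CPM or more in either group and at least 1.5-fold apart, with no test, since cells are not replicates. Named genes were all members, list genes past that rule, and Uhrf1, Tdg, Ogt, Idh3a, Mat2a and Ahcy. Also named were the 3 genes most like each member, and Mpo, Cpa3, Camp and Elane. Cd34, Kit, Ptprc and Dnmt3l were added after their values were seen. Scaling alternatives used edgeR 4.0.16 and DESeq2 1.42.0. Ratios were tested on simulated data. Of 32285 gene identifiers, 32158 matched GENCODE M21.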

Additional observations from a re-analysis of the deposited data

Results flagged for a closer look

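The following pairs of effects had opposite signs in the cell groups compared, and none of the differences was tested, since each library was a single sample. The Dnmt3b log2 ratio between the top and bottom granule bin was 0.0549 (-0.29 to 0.40) under vehicle and -1.42 (-1.85 to -1.04) under retinoic acid. For Tet2 the G2/M over G1 ratio was 0.22 under vehicle and -0.19 under retinoic acid, the latter with an interval that included 0. The S over G1 ratio of Tet3 was -0.0878 (-0.25 to 0.07) under vehicle and 0.22 (0.05 to 0.39) under retinoic acid. The G2/M over G1 ratio of Idh1 was 0.0193 (-0.10 to 0.14) under vehicle and -0.18 (-0.30 to -0.05) under retinoic acid. Retinoic acid over vehicle gave Idh2 a ratio of 0.19 (0.12 to 0.27) in cells of low granule share. In cells above that limit, where the vehicle library had 260 cells, it was -0.0667 (-0.18 to 0.06). No pair had both intervals clear of 0.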

How the results depend on the processing

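No paired analysis was possible because the design has 1 library per condition. Of 258 recomputed values, 198 stayed within their counting interval or, for counts of members, within 1.5 times, and 58 moved further. Another 2 changed sign where the interval of the main value excluded 0. Sign changes of main values whose interval included 0 were counted among the 198 or the 58. Scaling by TMM (a shift of 0.08 on the log2 scale) or DESeq2 size factors (0.11), or leaving the granule genes out of the total, moved the member median from 0.10 to 0.18, 0.20 and 0.19, Dnmt1 to 0.85, 0.88 and 0.87, Tet3 to 0.18, 0.20 and 0.19, Idh1 to 0.33, 0.36 and 0.35, and Idh2 to -0.15, -0.13 and -0.14. Equal weight for every cell gave 0.85 for Dnmt1, 0.17 for Idh1 and -0.29 for Idh2. The 2 members past 1.5-fold between libraries became 1 at a limit of 20 CPM and 0 at 2-fold. Without a limit on low levels, 2 members passed between S and G1 and between G2/M and G1 under vehicle, and 2 between G2/M and G1 under retinoic acid. At 2-fold, 1 passed between S and G1 and 0 between G2/M and G1 under retinoic acid. At 1.5-fold the count between G2/M and G1 under retinoic acid, 1 with the main phase calls, was 2 when phases were called without thinning. It was 0 when genes seen in under 3 cells stayed in the score's pool, an alternative chosen after seeing the data. The 2 members lower in the top retinoic acid granule bin became 1 with the granule genes left out of the total and 1 at 2-fold. The Dnmt1 top over bottom ratio under retinoic acid, -0.09, became 0.24 with the granule genes left out and 0.0486 in G1 cells alone; the former follows from the smaller total, and for the latter the cause was not tested. With 3 counts as the floor, a gene could be missed below 0.0303 CPM under vehicle and 0.0273 under retinoic acid.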
